A study of Danio rerio with 18 samples.

Results

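The comparison described here is the difference between the effect of the young mutation in the retina and its effect in the whole embryo. For each probe set it is the mutant minus wild type change in dissected retina, minus the mutant minus wild type change in whole embryo. It uses 12 of the 18 arrays of the series, 3 in each of 4 groups, and covers all 15502 probe sets that are not array controls. The groups were young mutant retina, wild type retina, young mutant whole embryo and wild type whole embryo, all of the AB strain at 52 hours post fertilization. The young mutants carry a mutation in smarca4, which the current gene table names smarca4a; the labels do not give the allele or the zygosity. They were staged by means of their wild type siblings. Each array was hybridized with RNA from a separate pool of 10 retinas or embryos, except that mutant retina replicate 2 held 9. The remaining 6 arrays, mutant and wild type retinas that kept their retinal pigment epithelium (RPE), do not enter the difference and are described last as separate samples.

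Smarca4 is the ATPase of SWI/SNF (BAF) chromatin remodelling complexes, which move nucleosomes and so change the access of transcription factors to DNA. In zebrafish the young mutant is known for retinal progenitors that leave the cell cycle but do not complete differentiation into layered, synapse-forming neurons. At the stage sampled here, wild type ganglion and amacrine cells have been born and are forming synapses, while photoreceptors are starting to mature. A whole embryo holds the eyes together with brain, muscle, skin, blood, fins, gut and yolk, and retinal RNA is therefore a part of each embryo sample. On such bulk samples, fewer cells of a type and less RNA per cell cannot be told apart.

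The values are log2 array signals as deposited, and changes are differences of log2 means ± SE from 1 limma fit over the 12 arrays, with adjusted p-values by Benjamini-Hochberg over all 15502 probe sets. A call means an adjusted p under 0.05. Where a gene had several probe sets, its value is that of the brightest over the 12 arrays. Fold is given as a ratio above 1, and not at all where the lower of the groups averaged under 5.11, which is the 30th percentile over all group means. Within the 4 groups, array correlations across probe sets ran from 0.993 to 0.996 and the median SD per probe set was 0.12, and 3 arrays per group limit the precision of each value. The dissections matched their labels: the mean of 7 retinal markers was 8.06 to 8.10 in mutant retina and 8.83 to 8.88 in wild type retina, above the 6.76 to 6.81 of mutant embryo and the 6.95 to 7.02 of wild type embryo. Of these markers slc32a1, rcvrn2 and pou4f2 changed by -2.66, -2.27 and -0.77 in mutant retina. The others, rx1, rx2, atoh7 and crx, changed by 0.14, -0.27, 0.25 and 0.19. The mean of 4 skeletal and cardiac muscle markers was 6.06 to 6.35 in mutant retina and 6.25 to 6.38 in wild type retina, far under the 12.7 to 12.8 of all 6 embryo arrays. Epidermal markers averaged 4.24 to 4.42 in mutant retina and 4.27 to 4.49 in wild type retina, and 2 of the 3 had means under 5.11 in both. Lens markers were an exception, as described below. RPE markers averaged 6.75 to 7.28 in mutant retina and 6.35 to 6.62 in wild type retina, without overlap. Erythrocyte markers averaged 5.91 to 6.35 in mutant retina and 5.80 to 5.88 in wild type retina. The means of the macrophage, liver and plasma, and cartilage markers went the other way, lower in mutant retina without overlap. The part of carried-over tissue in these values was not tested.

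The targeted gene itself changed to about the same extent in both tissues. Its log2 signal was 9.09, 8.69 and 8.89 in mutant retina, against 11.29, 10.97 and 11.19 in wild type retina. In whole embryo it was 8.03, 7.82 and 7.77 in mutants and 10.39, 10.15 and 10.36 in wild type. In each tissue every mutant array was below every wild type array. smarca4a was 4.79-fold lower in mutant retina (-2.26 ± 0.12, n = 3 arrays per group) and 5.38-fold lower in mutant embryo (-2.43 ± 0.12), and the difference of 0.17 ± 0.17 was not called (adjusted p = 0.755, 95% interval -0.21 to 0.55). A second smarca4a probe set was lower by 1.55 in mutant retina and by 1.64 in mutant embryo. None of the 22 measured SWI/SNF complex genes was called in the difference, against 8.11% of all genes. With the replicate number as a block 1 was, against 16%. With so few genes these counts do not set the list apart from all genes.

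More genes were called in mutant retina than in mutant embryo, and the largest class of genes that separated the tissues was lower in mutant retina alone. In retina 1819 of 8793 genes (20.7%) were called, 945 (10.7%) higher and 874 (9.94%) lower, and in embryo 713 (8.11%) were called, 349 (3.97%) higher and 364 (4.14%) lower. The difference between tissues was called for 713 genes, which is also 8.11% of those measured: 289 (3.29%) lay above 0 and 424 (4.82%) below 0. Over all probe sets, named or not, 1184 (7.64%) were called in the difference, 431 (2.78%) above 0 and 753 (4.86%) below 0. Arrays that share a replicate number deviated from their group means together, and with that number as a block 1407 genes (16%) were called, 658 (7.48%) above and 749 (8.52%) below 0, among them all 713. Among genes that fell in retina, 40.8% (357 of 874) were called in the difference, and among genes that rose there, 19.9% (188 of 945). Of those that fell in embryo 48.6% (177 of 364) were called, and of those that rose there 28.7% (100 of 349).

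Sorted by which tissue moved, 276 of the 713 genes were lower in mutant retina with no call in embryo, and 148 were higher in mutant retina with no call in embryo. Another 97 were lower in mutant embryo alone and 59 higher in mutant embryo alone. In 106 genes both tissues were called in the same direction by unequal amounts, in 15 they were called in opposite directions, and in 12 neither tissue was called although the difference was. Under the replicate block these 7 classes held 427, 353, 160, 124, 251, 62 and 30 genes. Not being called in a tissue does not show that a gene was unchanged there, and the classes are a description of the calls. The median change of the 276 genes was -1.02 in retina and -0.086 in embryo; that of the 148 genes was 0.74 in retina and 0.075 in embryo. Over all genes the medians were 0.040 in retina, -0.0037 in embryo and 0.035 for the difference.

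**Figure D1:**
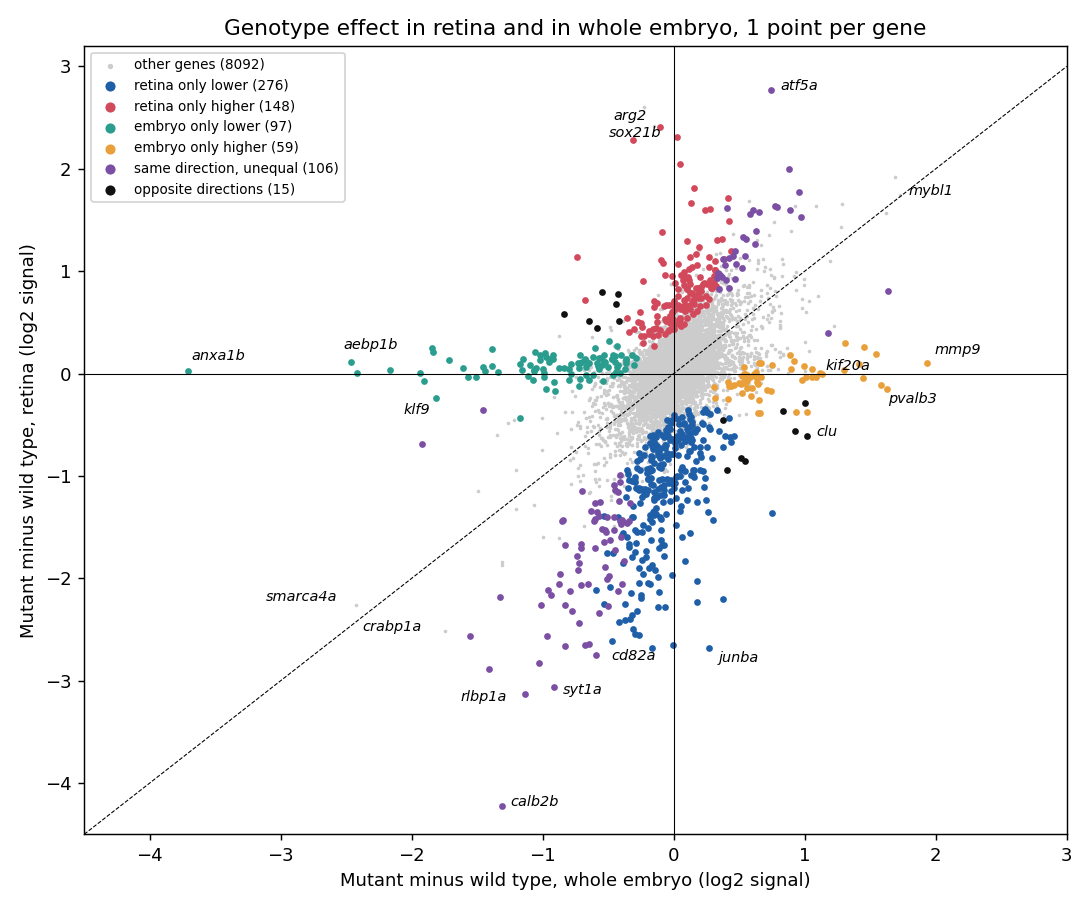
Each point is 1 gene, with its mutant minus wild type change in whole embryo on the x axis and in retina on the y axis (both log2 signal, 3 arrays per group); colours mark the classes of genes called in the difference and the dashed line marks equal effects. The 276 genes lower in retina alone hang below the centre of the plot, while smarca4a lies near the dashed line and anxa1b at the far left, lower in embryo by 3.71.

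Many genes of retinal neurons and their synapses were on the lower side. Of 28 measured ganglion cell genes, 19 were called below 0 in the difference and 0 above, with a median of -1.02. Of 22 genes of synaptic vesicles and exocytosis, 11 were called below 0 and 0 above, with a median of -0.72. Of 33 amacrine and horizontal cell genes, 14 were called below 0 and 2 above, with a median of -0.19. Against these stand 4.82% of all genes called below 0. These lists hold genes that many parts of the nervous system use, and their levels in embryo include brain and spinal cord.

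The largest change in retina among the genes of these lists was that of calb2b, a calretinin, which binds calcium in amacrine cells and ganglion cells. Its log2 signal was 7.53, 7.58 and 7.79 in mutant retina, against 11.88, 11.87 and 11.83 in wild type retina. In embryo it was 8.18, 8.01 and 8.22 in mutants and 9.37, 9.28 and 9.71 in wild type. The 3 mutant retina arrays lay below every other array, and the mutant embryo arrays lay below the wild type embryo arrays. calb2b was 18.7-fold lower in mutant retina (-4.23 ± 0.11) and 2.49-fold lower in mutant embryo (-1.31 ± 0.11), a difference of -2.91 ± 0.16 (adjusted p = 2e-06). Its paralogue calb2a had 7.56, 8.07 and 7.65 in mutant retina, against 9.96, 10.09 and 10.07 in wild type retina. In embryo calb2a had 9.12, 9.36 and 8.92 in mutants and 9.22, 9.30 and 9.24 in wild type, and these ranges overlapped. It was thus 4.85-fold lower in mutant retina, with a change in embryo of -0.12 ± 0.13 that was not called.

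Among the machinery of transmitter release, syt1a, a synaptotagmin that senses calcium at release sites, had 7.14, 7.59 and 7.36 in mutant retina, against 10.48, 10.39 and 10.40 in wild type retina. Its embryo values were 9.38, 9.42 and 9.14 in mutants and 10.14, 10.24 and 10.30 in wild type. Both tissues were lower in the mutant without overlap, by 8.34-fold in retina and 1.88-fold in embryo, and a second probe set gave a difference of -2.30 against -2.15 ± 0.16 for the first (adjusted p = 5.5e-06). cplx2a, a complexin that binds the SNARE fusion complex, had 7.04, 7.26 and 7.0 in mutant retina, against 9.69, 9.68 and 9.40 in wild type retina. In embryo cplx2a had 10.66, 10.52 and 10.48 in mutants and 11.0001, 10.93 and 10.66 in wild type, which met at 10.66. It was 5.62-fold lower in mutant retina, and the change in embryo of -0.31 ± 0.12 was not called. The vesicular acetylcholine transporter slc18a3a was 4.56-fold lower in mutant retina, with -0.25 ± 0.11 in embryo. The vesicular GABA and glycine transporter slc32a1 was called in both tissues, at -2.66 in retina and -0.83 in embryo. Synaptophysin sypa (difference -1.58) and the vesicle GTPase rab3c (-1.24) were called in retina and in the difference.

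Ganglion cell genes with the largest differences were structural and regulatory. The neuronal intermediate filament gene inab was 6.12-fold lower in mutant retina (-2.61 ± 0.15) and -0.47 ± 0.15 in embryo, which was not called. The microtubule regulator stmn2a was 4.49-fold lower in mutant retina and -0.25 ± 0.10 in embryo. irx4a, an Iroquois homeobox factor, had 7.57, 7.54 and 7.5 in mutant retina, against 10.49, 10.25 and 10.34 in wild type retina. In embryo irx4a had 7.45, 7.51 and 7.48 in mutants and 8.61, 8.44 and 8.48 in wild type, so that both tissues were lower in the mutant without overlap. The difference was -1.80 ± 0.12 (adjusted p = 2.7e-06). The chemokine receptor cxcr4b, which guides ganglion cell axons in zebrafish, was 3.77-fold lower in mutant retina and not called in embryo (-0.14 ± 0.16). The growth cone protein gap43 (-2.05 in retina, -0.88 in embryo) and the neuronal RNA-binding protein elavl3 (-1.75 in retina, -0.29 in embryo) were also called in the difference. An exception within the list was thy1, whose difference of -0.71 came with 0.18 in retina and 0.89 in embryo. For the ganglion cell marker pou4f2 the change in retina was -0.77 and the difference of -0.52 was not called (adjusted p = 0.0556).

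Transcription factors of the amacrine and horizontal cell list that were called in the difference lay below 0, with the exception of foxn4. meis2a, a TALE homeobox factor, was 5.25-fold lower in mutant retina (-2.39 ± 0.12) and -0.33 ± 0.12 in embryo, with a difference of -2.06 ± 0.16. tfap2c (-2.36 in retina, -0.32 in embryo), lmo4b (-1.96 in retina, -0.013 in embryo) and the GABA-synthesizing enzyme gad1b (-1.58 in retina, -0.39 in embryo) were called in retina and in the difference. foxn4, a forkhead factor of the progenitors that give rise to amacrine and horizontal cells, went the other way. It had 9.93, 9.97 and 9.99 in mutant retina against 8.68, 8.69 and 8.81 in wild type retina, and 6.95, 7.03 and 7.16 in mutant embryo against 6.88, 6.68 and 7.01 in wild type embryo. The groups did not overlap in retina and did overlap in embryo, and the difference was 1.04 ± 0.14 (adjusted p = 0.0003).

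Photoreceptor and glial genes were called in smaller shares than the lists above. Of 44 photoreceptor genes, 12 were called below 0 and 1 above in the difference (29.5%, against 8.11% of all genes), with a median of -0.12, and 14 of the 44 were under 5.11 in all 4 groups. The cone phosphodiesterase subunit gene pde6ha had 6.76, 7.15 and 6.88 in mutant retina, against 8.78, 8.19 and 8.85 in wild type retina, which is 3.2-fold lower. In embryo pde6ha had 6.85, 6.78 and 6.83 in mutants and 6.91, 6.92 and 6.90 in wild type. Those embryo values lie close together, and the change there of -0.088 ± 0.15 was not called. The cone transducin subunit gene gngt2b was 2.54-fold lower in mutant retina with 0.050 ± 0.15 in embryo. The recoverin rcvrn2 was lower in both tissues, by 4.81-fold in retina and 2.02-fold in embryo, with a difference of -1.25 ± 0.16. rlbp1a, a retinaldehyde-binding protein of the visual cycle, was 8.74-fold lower in retina and 2.19-fold lower in embryo, with a difference of -2.00 ± 0.13. Of 26 bipolar and Muller cell genes, 5 were called below 0 and 1 above, which is 23.1%.

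Large changes called in retina alone also included genes outside these lists. junba, a subunit of the AP-1 transcription factor, had 7.08, 7.08 and 7.04 in mutant retina, against 9.89, 9.74 and 9.61 in wild type retina. In embryo junba had 6.93, 7.61 and 7.60 in mutants and 7.17, 7.29 and 6.86 in wild type. Mutant retina thus lay at the level of the embryos, and only wild type retina stood above, with a difference of -2.95 ± 0.23 (adjusted p = 6.5e-06). The AP-1 subunit fosl2 (difference -1.74 ± 0.12, with 2 further probe sets at -0.98 and -1.43) and the MAP kinase phosphatase dusp2 (-1.71 ± 0.22) were lower in mutant retina as well, by 2.71-fold and 3.74-fold. irx7, an Iroquois factor that acts in zebrafish retinal differentiation, had 6.43, 6.26 and 6.86 in mutant retina, against 8.93, 8.56 and 8.75 in wild type retina. In embryo irx7 had 7.0, 6.41 and 6.86 in mutants and 6.86, 6.33 and 6.55 in wild type. The mutant retina and both embryo groups overlapped, and irx7 was 4.69-fold lower in mutant retina. The tetraspanin cd82a (-2.66 in retina, -0.0089 in embryo) and the adaptor samsn1a (-2.68 in retina, -0.17 in embryo) had differences of -2.65 ± 0.27 and -2.51 ± 0.18.

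A pair of genes of liver and yolk stood among those lower in mutant retina. bhmt, a betaine methyltransferase, had 6.1, 6.59 and 6.29 in mutant retina against 8.81, 7.95 and 8.30 in wild type retina, and 14.32, 14.25 and 14.26 in mutant embryo against 14.17, 14.09 and 14.04 in wild type embryo. A second bhmt probe set showed no such pattern, with a difference of -0.27 (adjusted p = 0.697). The apolipoprotein apobb.1 had 4.02, 3.99 and 4.08 in mutant retina against 5.26, 4.59 and 5.1 in wild type retina, and 12.43, 12.51 and 12.58 in mutant embryo against 12.43, 12.09 and 12.33 in wild type embryo. For both genes every embryo array was far above every retina array, and for apobb.1 both retina groups averaged under 5.11. The mean of the liver and plasma markers fabp10a and tfa was 4.24 to 4.41 in mutant retina and 4.53 to 4.74 in wild type retina, with both genes' means under 5.11; the part of carried-over tissue in these values was not tested.

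**Figure D2:**
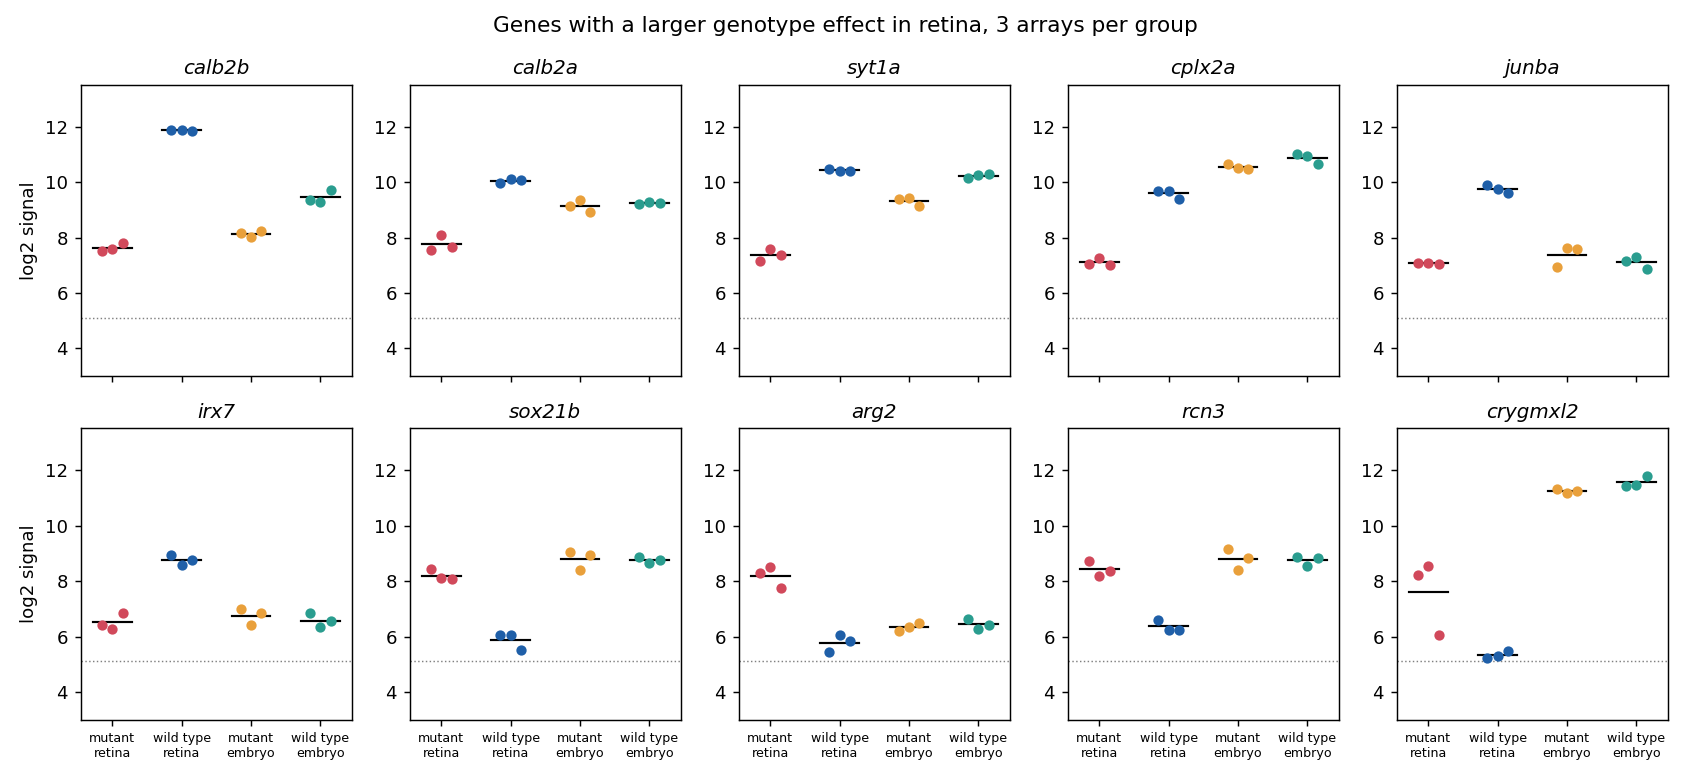
Log2 signal of 10 genes on each of the 12 arrays, by group; points are arrays, bars are group means and the dotted line is the 30th percentile of group means (5.11). For calb2b, calb2a, syt1a, cplx2a, junba and irx7 the mutant retina points lie below the wild type retina points, and for sox21b, arg2, rcn3 and crygmxl2 above them, with little or no separation in embryo except for calb2b and syt1a.

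On the higher side in retina, sox21b, a SoxB2 factor of neural progenitors, differed in a single group. It had 8.42, 8.10 and 8.07 in mutant retina against 6.06, 6.07 and 5.52 in wild type retina, and 9.04, 8.4 and 8.94 in mutant embryo against 8.87, 8.66 and 8.77 in wild type embryo. Only wild type retina stood apart, below all other arrays, and sox21b was 4.96-fold higher in mutant retina with a difference of 2.29 ± 0.25 (adjusted p = 8.9e-05). arg2, a mitochondrial arginase, had 8.28, 8.52 and 7.74 in mutant retina against 5.43, 6.04 and 5.85 in wild type retina, and 6.2, 6.34 and 6.50 in mutant embryo against 6.64, 6.28 and 6.43 in wild type embryo. Here mutant retina stood apart, above all other arrays, by 5.30-fold over wild type retina. rcn3, a reticulocalbin of the endoplasmic reticulum, had 8.71, 8.2 and 8.35 in mutant retina, against 6.61, 6.25 and 6.24 in wild type retina, and its embryo arrays ran from 8.4 to 9.16 in mutants and from 8.55 to 8.87 in wild type. Like sox21b, rcn3 was low in wild type retina alone. The ubiquitin ligase gene pdzrn3b (difference 1.66 ± 0.11) and the guidance molecule gene rgma (1.46 ± 0.13) were 3.52-fold and 2.60-fold higher in mutant retina, but a second rgma probe set had a difference of 0.048 (adjusted p = 0.943) and overlapping groups. en2b, an engrailed factor of the midbrain and hindbrain, had 5.58, 5.73 and 5.48 in mutant retina, against 3.85, 3.94 and 4.2 in wild type retina, the second set under 5.11.

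Several neurogenic factors were higher in mutant retina and, by less, in mutant embryo. The Notch ligand dlc had 9.49, 9.72 and 9.49 in mutant retina against 8.26, 8.21 and 8.29 in wild type retina, and 7.44, 7.41 and 7.55 in mutant embryo against 6.80, 7.03 and 6.91 in wild type embryo. It was 2.49-fold higher in mutant retina and 1.47-fold higher in mutant embryo, without overlap in either. The difference was 0.76 ± 0.13 (adjusted p = 0.00218). The other dlc probe sets were also called higher in retina (0.60 and 0.41). Their embryo changes of -0.10 and 0.10 were not called, so the rise in embryo rests on the brightest probe set. insm1b, a zinc finger factor of newborn neurons, had 1.34 in retina and 0.53 in embryo. The Notch ligand dla had 1.2 in retina and 0.47 in embryo, and the progenitor nuclear receptor nr2e1 had 1.13 in retina and 0.42 in embryo. Of 48 Notch and proneural genes, 5 were called above 0 in the difference and 5 below 0, against 3.29% and 4.82% of all genes. Under the replicate block 13 were above and 8 below, against 7.48% and 8.52%. In the main fit another 5 were called in the same direction in both tissues with no call in the difference, against 240 of all 8793 genes. Among them were ascl1a (1.65 in retina, 1.29 in embryo), neurog1 (1.64 and 1.09) and hes6 (1.43 and 1.28). The 5 below 0 include neurod6a, a proneural basic helix-loop-helix factor of amacrine cells, and hey1, a Notch effector. neurod6a had 4.36, 4.67 and 4.38 in mutant retina against 6.81, 6.80 and 6.79 in wild type retina, and 6.46, 6.22 and 5.86 in mutant embryo against 6.95, 6.61 and 6.69 in wild type embryo. hey1 had 5.77, 5.97 and 5.95 in mutant retina against 6.99, 7.29 and 7.13 in wild type retina, and its embryo groups overlapped with means of 6.82 in mutants and 6.85 in wild type. The proneural ascl1b was below 0 through a call in embryo (0.66, with -0.39 in retina). The count above 0 was 2 to 3 when any of wild type embryo replicate 3, wild type retina replicate 1, mutant embryo replicates 1 and 2 or mutant retina replicates 1 and 3 was left out.

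Progenitor genes were called on both sides. Of 54 genes of retinal progenitors and the ciliary margin, 5 were called above 0 and 8 below 0, with a median of 0.063. That is 24.1% of the list, against 8.11% of all genes (3.29% above and 4.82% below). Besides sox21b, foxn4, insm1b and nr2e1, the fifth above 0 was the SoxB1 factor sox3 (1.06 in retina, 0.39 in embryo). Among the 8 below 0, the orphan nuclear receptor nr2f1a had 7.72, 7.97 and 7.58 in mutant retina against 9.23, 9.24 and 8.95 in wild type retina, with embryo means of 10.46 in mutants and 10.61 in wild type. The retinoic acid synthesizing enzyme aldh1a2 (-0.99 in retina, 0.13 in embryo) and the homeobox factors meis1b (-1.02 in retina, -0.17 in embryo) and hmx4 (-0.94 in retina, -0.20 in embryo) were called in retina alone as well.

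Many cell cycle genes rose in mutant retina, and fewer were called in the difference, 12.5% of the DNA replication list and 22% of the mitosis list. Of all genes 8.11% were. Of 64 DNA replication genes, 8 were called above 0 in the difference, 0 below and 56 were not called, with a median of 0.36, against 3.29% of all genes above 0. In retina 36 were called higher and 1 lower, and in embryo 4 higher and 1 lower. Among all genes 10.7% were higher and 9.94% lower in retina, and 3.97% higher and 4.14% lower in embryo. Of 59 mitosis genes, 12 were called above 0, 1 below and 46 were not called, with a median of 0.49; in retina 43 were called higher and 1 lower, and in embryo 4 higher and 0 lower. The replicate block gave 24 above and 0 below 0 for DNA replication and 42 above and 2 below for mitosis, against 7.48% and 8.52% of all genes. Examples are the helicase factor cdc45 (0.83 in retina, 0.17 in embryo), the kinetochore protein nuf2 (0.91 in retina, 0.12 in embryo), the kinesin kif15 (0.82 in retina, 0.10 in embryo) and the centriole factor stil (1.15 in retina, 0.54 in embryo). Leaving out 1 array moved the counts above 0 to between 4 and 8 for DNA replication and between 4 and 14 for mitosis. They moved by over 1.5 times without wild type embryo replicates 2 and 3, wild type retina replicate 1, mutant embryo replicate 1 and mutant retina replicate 1 in both lists, and without wild type retina replicate 2 and mutant retina replicate 3 for mitosis.

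The mitosis gene below 0 was kif20a, a kinesin of cell division. It had 5.52, 5.53 and 5.58 in mutant retina against 5.57, 5.70 and 5.47 in wild type retina, and 9.57, 9.52 and 9.64 in mutant embryo against 8.59, 8.49 and 8.38 in wild type embryo. The retinal groups overlapped, and the embryo groups did not, with a difference of -1.12 ± 0.12 (adjusted p = 8.1e-05). A second kif20a probe set had 0.26 in retina, -0.061 in embryo and a difference of 0.32 that was not called. The probe sets therefore disagree in their levels and in their sign, and which of them follows kif20a was not tested.

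Single factors of the stress response were called above 0 in the difference. atf5a, a bZIP factor of the ATF family, had 7.29, 8.16 and 7.09 in mutant retina against 4.63, 4.68 and 4.93 in wild type retina, and 8.12, 8.02 and 7.93 in mutant embryo against 7.40, 7.26 and 7.19 in wild type embryo. It was higher in the mutant without overlap in both tissues, and wild type retina was under 5.11, so no fold is given there; in embryo it was 1.67-fold. The difference was 2.02 ± 0.29 (adjusted p = 0.00065), but on linear signal it was not called (adjusted p = 0.541). atf3 (1.77 in retina, 0.95 in embryo), the secreted stanniocalcin stc2a (2.00 in retina, 0.88 in embryo) and the glutathione-degrading enzyme chac1 (0.96 in retina, -0.0096 in embryo) were called as well. Of 68 genes of the ATF4, unfolded protein and amino acid response, 6 were called above 0 in the difference, 1 was called below and 61 were not called. Over all genes 3.29% were above 0 and 4.82% below. In retina 19 of the 68 were called higher and 9 lower, against 10.7% and 9.94% of all genes. Under the replicate block 12 were above and 4 below 0, where 7.48% and 8.52% of all genes were. That count of 6 was 3 without wild type embryo replicate 1, wild type retina replicates 1 or 3, or mutant embryo replicates 1 or 2.

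A few genes of the p53 pathway and apoptosis were called. Of 41 such genes, 4 were called below 0 in the difference and 1 above, with a median of 0.066, which is 12.2% called against 8.11% of all genes. In retina 7 were called higher and 4 lower, against 10.7% and 9.94% of all genes. In embryo 5 were called higher and 1 lower, against 3.97% and 4.14%. The p53-induced autophagy protein gene tp53inp1 was called in both tissues, by -1.53 in retina and -0.45 in embryo. The forkhead factor foxo3b (-1.21 in retina, -0.15 in embryo, with a second probe set at 0.13 and -0.072 and not called), phlda3, a p53 target that restrains Akt signalling in mammals (-1.16 in retina, -0.15 in embryo), and the anti-apoptotic bcl2l1 (-0.65 in retina, 0.14 in embryo) were called in retina alone. The polo-like kinase plk3 was the gene above 0, at 1.56 in retina and 0.58 in embryo.

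Of 32 endothelial genes, 1 was called above 0 in the difference and 3 below, against 3.29% and 4.82% of all genes. A secreted signal lay on each side, and the flow-responsive factor klf2b was below 0 with -0.16 in retina and 0.71 in embryo, where it was called. apln, the peptide ligand apelin, had 7.02, 6.86 and 6.61 in mutant retina against 8.78, 8.75 and 8.34 in wild type retina, and 7.77, 7.90 and 7.80 in mutant embryo against 8.24, 8.34 and 7.85 in wild type embryo. The retinal groups did not overlap, the embryo groups did, and the difference was -1.47 ± 0.21 (adjusted p = 0.00065). vegfaa, the main vascular growth factor, had 6.53, 6.72 and 6.49 in mutant retina against 5.64, 5.57 and 5.39 in wild type retina, with embryo means of 6.08 in mutants and 5.94 in wild type. The lymphatic growth factor vegfc changed by -0.73 in retina and 0.011 in embryo. The mean of the endothelial markers kdrl and plvapb was 5.92 to 6.36 in mutant retina and 6.29 to 6.51 in wild type retina, against 8.08 to 8.24 in mutant embryo and 8.16 to 8.23 in wild type embryo.

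A few lens genes were also among the largest positive differences, with values that varied widely between the mutant retina arrays. Of 14 measured lens genes, 2 were called above 0, 0 below and 12 were not called (14.3% called, against 8.11% of all genes). The median difference was 0.30. The crystallin crygmxl2 had 8.22, 8.53 and 6.07 in mutant retina against 5.21, 5.28 and 5.48 in wild type retina, and 11.32, 11.18 and 11.24 in mutant embryo against 11.43, 11.47 and 11.78 in wild type embryo. Mutant retina replicate 3 lay near the wild type retinas, and replicates 1 and 2 lay far above them. The difference of 2.59 ± 0.63 (adjusted p = 0.0216) was not called without mutant retina replicate 1 (adjusted p = 0.0623) or wild type retina replicate 1 (adjusted p = 0.0555). The crystallins crybb1 and cryba4 showed the same order of arrays. Their differences of 2.83 (adjusted p = 0.0777) and 2.56 (adjusted p = 0.0544) were not called. The mean of the 3 lens markers was 6.40 to 8.95 in mutant retina and 5.53 to 5.71 in wild type retina, against 10.5 to 11.1 in mutant embryo and 10.7 to 11.7 in wild type embryo. In RPE-attached retina it was 5.66 to 6.14 in mutants and 5.85 to 6.04 in wild type, and none of the 3 crystallins was called there. The part of lens tissue in the mutant retina pools was not tested.

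The other side of the comparison holds genes that fell in mutant embryo while the retina showed no call. The 97 such genes had a median change of 0.080 in retina and -0.78 in embryo, and in 56 of them wild type retina was under 5.11, as it was for 22.7% of all genes. At signals this low little room is left for a measured fall in retina. anxa1b, an annexin of epidermal cells, had the largest difference of all named genes. It had 5.0, 4.98 and 4.94 in mutant retina against 4.94, 4.94 and 4.98 in wild type retina, and 5.69, 6.19 and 6.72 in mutant embryo against 9.66, 9.56 and 10.51 in wild type embryo. Only wild type embryo had a strong signal, 13.1-fold above mutant embryo, with a difference of 3.73 ± 0.35 (adjusted p = 2.6e-05).

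Matrix and fin fold genes were among those lower in mutant embryo. Of 65 genes of mesenchyme, cartilage and collagen, 11 were called above 0 in the difference and 3 below, and 14 were called lower in embryo. Of all genes 3.29% were above 0, 4.82% below and 4.14% lower in embryo. The actinodin and2, a component of the fibrils that stiffen the fin fold, had 4.89, 4.88 and 4.71 in mutant retina against 4.54, 4.56 and 4.67 in wild type retina, and 9.05, 9.52 and 9.72 in mutant embryo against 10.72, 10.77 and 10.95 in wild type embryo. It was 2.61-fold lower in mutant embryo, without overlap, and its paralogues and1 (-1.02 in embryo) and and3 (-1.16 in embryo) were lower too. aebp1b, a secreted matrix protein, had 4.39, 4.31 and 4.16 in mutant retina against 3.90, 4.33 and 4.3 in wild type retina, and 5.34, 5.76 and 5.58 in mutant embryo against 7.96, 8.13 and 7.99 in wild type embryo. That is 5.52-fold lower in mutant embryo, with a difference of 2.58 ± 0.19 (adjusted p = 4e-06). The collagens col28a2a (-2.42 in embryo), col10a1a (-1.34) and col6a3 (-0.92) and the proteoglycan decorin, dcn (-1.46), were lower in mutant embryo, and their retinal changes lay between 0.0076 and 0.14.

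Some muscle and metabolic genes were lower in mutant embryo, without a change of the muscle list as a whole. Myoglobin, mb, had 6.92, 6.80 and 6.92 in mutant retina against 6.73, 6.78 and 6.70 in wild type retina, and 7.56, 7.73 and 7.64 in mutant embryo against 8.84, 8.76 and 8.77 in wild type embryo. It was 2.22-fold lower in mutant embryo with a difference of 1.29 ± 0.11 (adjusted p = 1.1e-05). The actin acta1a (2.03-fold) and the myosin heavy chain myh7 (2.08-fold) were lower in mutant embryo, while in all 4 of 65 muscle genes were called above 0 in the difference and 3 below. That is 10.8% of the list, against 8.11% of all genes. The carbonic anhydrase ca2 had 8.77, 8.6 and 8.66 in mutant retina against 8.62, 8.37 and 8.57 in wild type retina, and 10.56, 10.41 and 10.45 in mutant embryo against 11.70, 11.35 and 11.30 in wild type embryo. ca2 thus had a clear signal in retina, overlapping between genotypes, and was 1.96-fold lower in mutant embryo. The keratin krt91 was 2.07-fold lower in mutant embryo, and a second probe set gave -1.0 against -1.05.

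Single genes outside the matrix and muscle lists were lower in mutant embryo as well. klf9, a zinc finger factor, had means of 5.55 in mutant retina and 5.78 in wild type retina, against 6.08 in mutant embryo and 7.90 in wild type embryo, with a difference of 1.57 ± 0.23 (adjusted p = 0.00067). fkbp5, a chaperone of steroid receptors, was called lower in both tissues, by 0.69 in retina and by 1.92 in embryo, and was among the few genes called in both whose larger change was in embryo. Insulin, ins, changed by -0.034 in retina and -0.99 in embryo, and trypsinogen, prss1, by -0.17 in retina and -0.91 in embryo. Urate oxidase, uox, lay between 3.97 and 4.3 on all retinal arrays, and had 3.77, 3.91 and 3.74 in mutant embryo against 5.63, 5.93 and 5.68 in wild type embryo.

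The 59 genes higher in mutant embryo alone had a median change of -0.042 in retina and 0.65 in embryo, and wild type retina was under 5.11 in 34 of them. mmp9, a matrix metalloproteinase, had 5.98, 6.08 and 5.72 in mutant retina against 5.55, 5.99 and 5.93 in wild type retina, and 8.66, 9.02 and 9.34 in mutant embryo against 6.98, 7.28 and 6.96 in wild type embryo. It was 3.82-fold higher in mutant embryo with overlapping retinal groups, and the difference was -1.83 ± 0.24 (adjusted p = 0.00034). The parvalbumin pvalb3, a calcium buffer of muscle and nerve, lay between 5.08 and 5.58 in all 6 retinas. It had 10.22, 10.07 and 10.49 in mutant embryo, against 8.66, 8.6 and 8.78 in wild type embryo, which is 2.99-fold higher. The cytokine signalling inhibitors socs3a (-0.38 in retina, 1.02 in embryo) and socs3b (-0.0076 in retina, 1.13 in embryo) were both higher in mutant embryo. Of 47 macrophage and leukocyte genes, 9 were called below 0 in the difference and 0 above, and 10 were called higher in embryo, against 4.82% of all genes below 0, 3.29% above and 3.97% higher in embryo. The 9 include mmp9, both socs3 genes and the cathepsin ctss2.1 (0.98 in embryo).

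Some blood genes were also higher in mutant embryo. The alpha globin hbaa1 had 5.80, 5.80 and 5.73 in mutant retina against 5.47, 5.50 and 5.77 in wild type retina, and 7.47, 6.96 and 7.60 in mutant embryo against 5.74, 5.70 and 5.95 in wild type embryo. Only mutant embryo stood apart, 2.92-fold above wild type embryo. Of 37 erythrocyte genes, 10 were called higher and 2 lower in embryo, against 3.97% and 4.14% of all genes. In the difference 6 were called below 0 and 3 above, against 4.82% and 3.29% of all genes. Those above 0 were slc43a1a, klf3 and ca2, which was lower in mutant embryo as described above (-0.97). Under the replicate block 10 were below and 4 above, against 8.52% and 7.48%. The mean of the erythrocyte markers hbaa1, alas2 and slc4a1a was 8.56 to 9.05 in mutant embryo and 7.82 to 8.16 in wild type embryo. The carbonic anhydrase gene cahz, of red cells and retina, had 6.42, 7.17 and 7.16 in mutant retina against 8.14, 8.05 and 8.65 in wild type retina, and 9.64, 10.05 and 10.34 in mutant embryo against 9.11, 9.29 and 9.38 in wild type embryo. It was called lower in mutant retina, by 2.57-fold, and its embryo change of 0.75 ± 0.22 was not called (adjusted p = 0.0611).

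**Figure D3:**
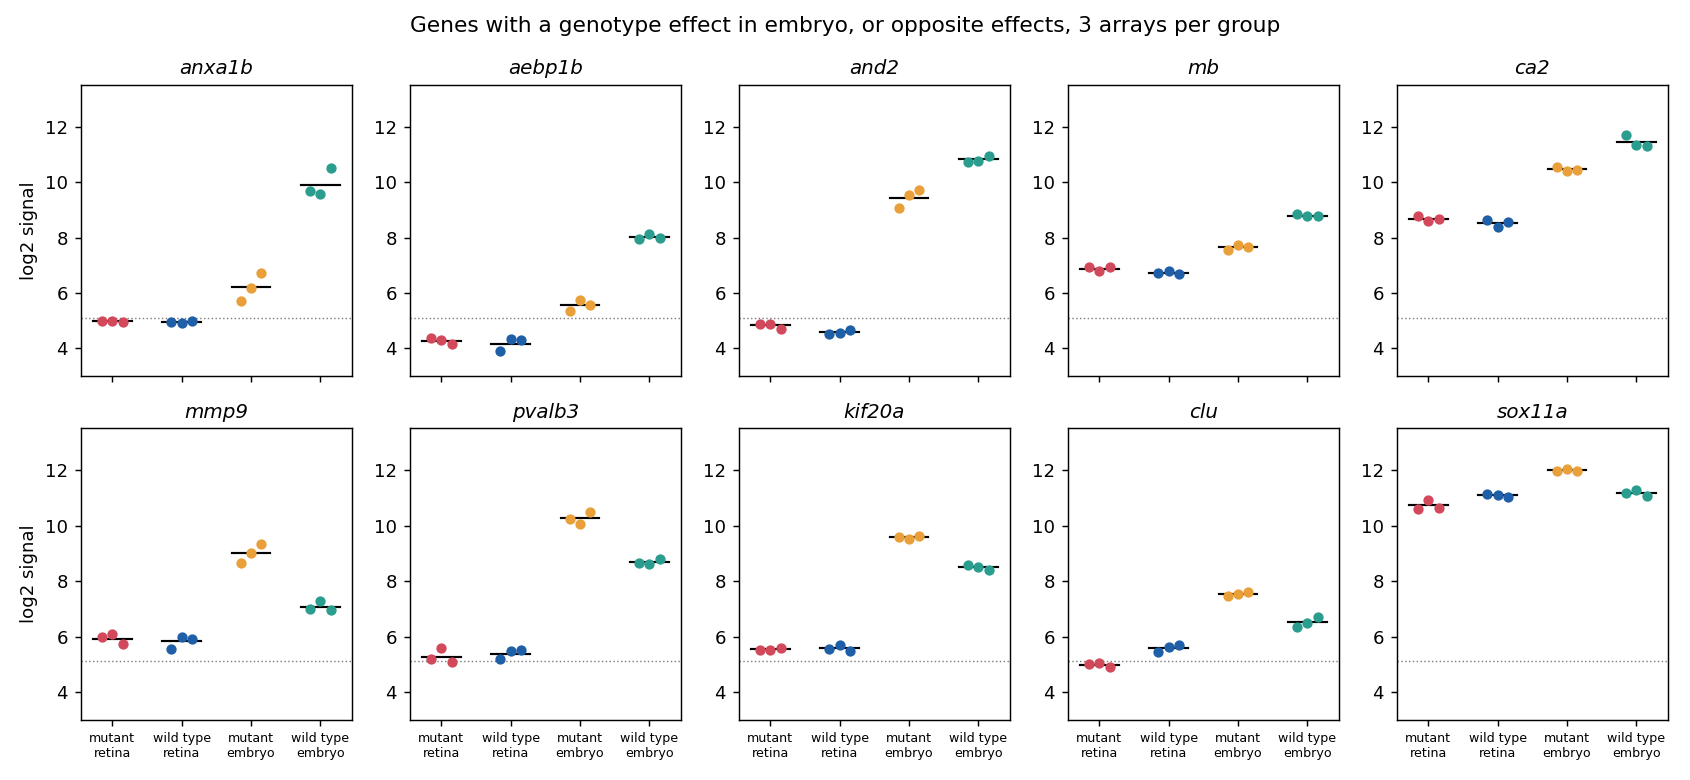
Log2 signal of 10 genes on each of the 12 arrays, by group; points are arrays, bars are group means and the dotted line is the 30th percentile of group means (5.11). For anxa1b, aebp1b, and2, mb and ca2 the mutant embryo points lie below the wild type embryo points and for mmp9, pvalb3, kif20a, clu and sox11a above them, while clu and sox11a are lower in mutant retina.

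In 15 genes the mutation had opposite effects in the 2 tissues. Clusterin, clu, a secreted chaperone, had 5.01, 5.05 and 4.89 in mutant retina against 5.45, 5.62 and 5.70 in wild type retina, and 7.46, 7.55 and 7.59 in mutant embryo against 6.33, 6.49 and 6.72 in wild type embryo. It was lower in mutant retina by 0.61 ± 0.11 and higher in mutant embryo by 1.02 ± 0.11, without overlap in either tissue. Its mutant retina arrays were all under 5.11. sox11a, a SoxC factor of differentiating neurons, had 10.61, 10.93 and 10.64 in mutant retina against 11.15, 11.12 and 11.02 in wild type retina, and 11.99, 12.04 and 11.96 in mutant embryo against 11.16, 11.27 and 11.06 in wild type embryo. Its wild type levels were alike in retina and embryo and its mutant levels were not, with a difference of -1.2 ± 0.14 (adjusted p = 0.00012). A second sox11a probe set gave -1.31, called in embryo and not in retina, and the other gave -0.66, not called. nr4a1, a nuclear receptor of the immediate early class, went the other way. It had 6.77, 6.68 and 6.65 in mutant retina against 6.04, 6.27 and 6.26 in wild type retina, and 7.28, 7.26 and 7.35 in mutant embryo against 7.95, 8.05 and 7.85 in wild type embryo, and the difference was 1.16 ± 0.13. The count of 15 was 9 without wild type embryo replicate 2 or without mutant embryo replicate 3, and 62 under the replicate block.

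Genes called in both tissues mostly moved in the same direction, 346 of 361. In 106 of the 346 the difference was called, with 71 lower and 31 higher genes changed more in retina and 2 lower and 2 higher genes changed more in embryo. The count of 106 was 57 to 68 without wild type embryo replicates 1, 2 or 3 or mutant embryo replicate 3, and 251 under the replicate block. In the other 240 (137 higher in both mutant tissues, 103 lower in both) the difference was not called, and in 230 of these its 95% interval stayed within 2-fold in either direction. The transcription factor mybl1 had 11.83, 11.69 and 11.74 in mutant retina against 10.08, 10.07 and 9.87 in wild type retina, and 9.62, 9.26 and 9.63 in mutant embryo against 7.86, 7.92 and 7.56 in wild type embryo. Its 3.35-fold rise in retina and 3.30-fold rise in embryo gave a difference of 0.023 ± 0.17 (95% interval -0.35 to 0.40). ier5l, an immediate early response gene, had 11.55, 11.49 and 11.68 in mutant retina against 9.94, 9.98 and 10.08 in wild type retina, and 11.57, 11.46 and 11.66 in mutant embryo against 9.89, 9.85 and 10.09 in wild type embryo. Both its levels and its changes were close between tissues, with a difference of -0.050 ± 0.13 (95% interval -0.34 to 0.23). The retinoic acid binding protein gene crabp1a was 5.72-fold lower in mutant retina and 3.35-fold lower in mutant embryo, and its difference of -0.77 ± 0.23 was not called (adjusted p = 0.0636) but was under the replicate block (adjusted p = 0.00338).

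**Figure D4:**
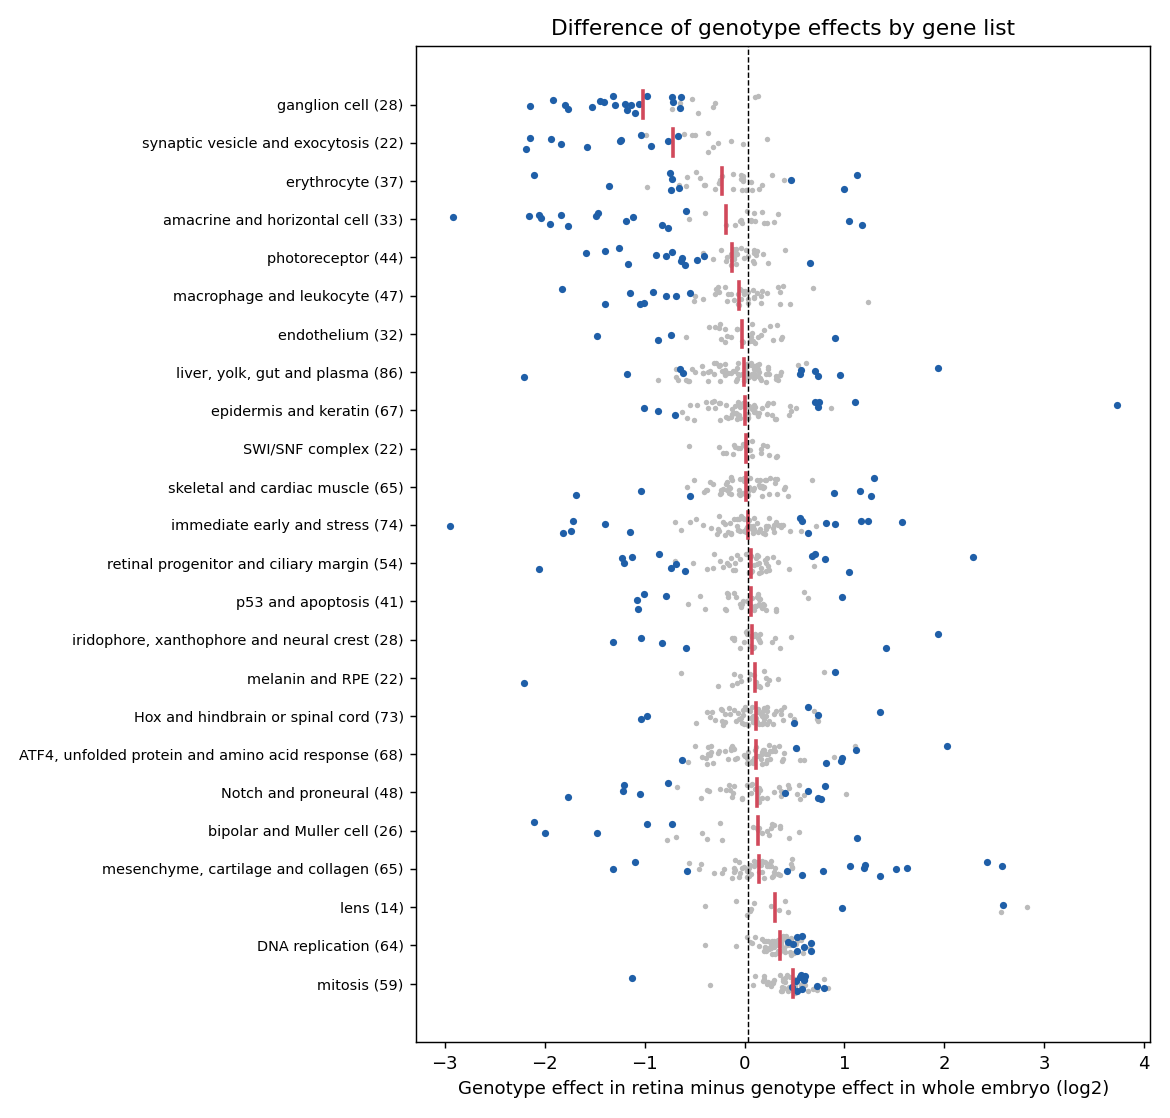
Each row is a gene list with its number of measured genes; points are genes, placed by the retina minus embryo difference of the genotype effect (log2), blue where called, red bars are list medians and the dashed line is the median over all genes. The ganglion cell and synaptic vesicle lists have medians of -1.02 and -0.72, and the DNA replication and mitosis lists 0.36 and 0.49.

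Levels in the wild type differed between the classes. Wild type retina had a higher signal than wild type embryo in 68.2% of all genes. It did in 172 of the 276 genes lower in mutant retina alone and in 95 of the 148 higher there alone, but in 3 of the 97 lower and 4 of the 59 higher in mutant embryo alone. Both embryo classes thus held few genes with more signal in retina than in embryo. Among the 121 genes called in the difference that had several probe sets, 132 of the 152 other probe sets had the same sign, 35 were called with it and no gene had calls of opposite sign. Further probe sets of genes named above with no call in the difference were those of pde6ha (-0.47), samsn1a (-0.48) and kif15 (0.38), and one each of foxn4 (0.58) and dlc (0.31), where the other gave 0.40 for foxn4 and 0.71 for dlc, both called. Those of rcvrn2, chac1 and bcl2l1, all under 5.11 in each group, had differences of 0.011, 0.0048 and -0.012.

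The retinas with attached RPE give the same kind of measure in pools that do not enter the difference. Those pools held 10 wild type retinas or 6 mutant retinas. Their array hybridization controls averaged 10.98 to 11.25 in mutants and 9.41 to 9.51 in wild type. Genotype, pool size and whatever set the level of these controls cannot be told apart there. Fitted on these 6 arrays alone, 3825 genes (43.5%) were called, 24.8% of all genes higher and 18.7% lower. Of the 276 genes lower in mutant retina alone, 218 were called lower and 6 higher in RPE-attached retina. Of the 148 higher in mutant retina alone, 99 were called higher and 0 lower. Of the 97 genes lower in mutant embryo alone, 8 were called lower and 10 higher, and of the 59 higher in mutant embryo alone, 13 were called higher and 3 lower. The median changes of these 4 classes were -0.81, 0.69, 0.015 and 0.078, against 0.063 over all genes.

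By their brightest probe sets, single genes followed their class with few exceptions. calb2b changed by -3.55, syt1a by -3.19, junba by -2.39 and sox21b by 2.23 in mutant RPE-attached retina, each called. irx7 changed by -1.21 (adjusted p = 0.0108) and arg2 by 1.52 (adjusted p = 0.00123). Exceptions among the genes above included bhmt at 0.037, apobb.1 at -0.13, crygmxl2 at -0.16, pdzrn3b at 0.34, nuf2 at 0.062 and chac1 at 0.25, none of them called. Probe sets of foxn4 disagreed there. The brightest had 0.77, and the others had -0.51, called lower (adjusted p = 0.0382), and -0.17, not called. For dlc the brightest had 1.45, and the others had -0.056, not called, and 0.44, called higher. Those of sox11a, lower in bare mutant retina by its brightest probe set, disagreed as well. The brightest had -0.19, and the others had 0.52, called higher (adjusted p = 0.00621), and -0.35, not called. Among the embryo genes, socs3a (0.98) and socs3b (1.3) were called higher in mutant RPE-attached retina though not in bare retina, and hpda, an enzyme of tyrosine breakdown, was called lower at -1.35.

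**Figure D5:**
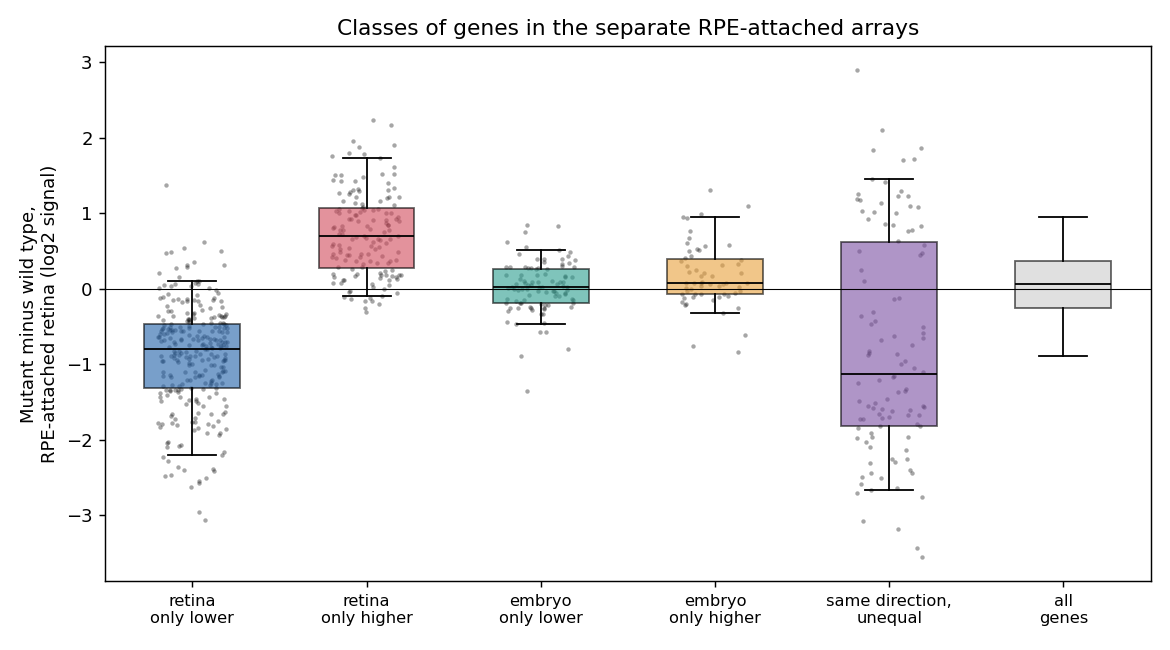
Mutant minus wild type change in RPE-attached retina (log2 signal, 3 arrays per genotype) for the genes of each class and for all genes; points are genes, boxes span the quartiles with the median as a line, and whiskers run from the 5th to the 95th percentile. The classes lower and higher in retina alone have medians of -0.81 and 0.69, while both embryo classes lie near the median of all genes, 0.063.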

How the data were processed

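RNA of 12 pools, 3 in each of 4 groups, was measured on Affymetrix zebrafish arrays, and 6 further arrays of RPE-attached retina were fitted apart. The values are the authors' deposited log2 signals, made with RMA in the package affy under R 2.2.0 per the submitters' processing notes. The labels call the replicates biological. The p-values measure the spread between these pools, which in the main fit includes what arrays of the same replicate number share.

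Of 15617 probe sets, 115 control probe sets were left out and 15502 tested. The platform annotation gave 1 symbol to 10795, several to 135 and none to 4572. Symbols were checked against the gene table of assembly GRCz12tu, which updated 1 and lacked 84, and 8793 genes resulted. A fit of 4 group means was made with limma 3.58.1 under R 4.3.3, with empirical Bayes moderation and Benjamini-Hochberg adjustment, and was tested on simulated data. The simulation gave each array independent noise, so it does not cover what arrays of the same replicate number share. Tables and figures were made with Python 3.11.15, pandas 2.3.3 and matplotlib 3.10.9.

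Replicate numbers pair the arrays. Deviations from group means, correlated across probe sets, were 0.36 to 0.57 between arrays of the same number in all 6 pairs of groups. Between other numbers they averaged -0.29 to -0.18. Deviations of 3 arrays from their mean sum to 0, so these negative values follow from the positive ones and add no evidence. The array hybridization controls averaged 10.14 to 10.40 for number 1, 9.32 to 9.58 for number 2 and 9.13 to 9.37 for number 3. The study's methods are not stated to use a block, so the main fit has none and the replicate block is an alternative. The main calls and p-values therefore ignore this pairing, with 713 genes called against 1407 under the block.

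The comparison and the 24 gene lists (1810 entries, 1119 measured) were chosen with earlier results of these data known. Genes named are smarca4a, the 12 called genes with the largest difference in each direction, the 8 largest of each class, the 8 genes with the largest shared change, and up to 6 members of a list with the smallest p-value. Outside this rule, aldh1a2, and1, atf3, col10a1a, dla, elavl3, fkbp5, gad1b, gap43, hmx4, ins, klf9, lmo4b, meis1b, nr2e1, sox3, tfap2c and thy1 were named after their values were seen. Alternatives were other thresholds, normalizations, moderations, filters and scales, and leaving out each array.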

Additional observations from a re-analysis of the deposited data

Results flagged for a closer look

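The genotype effect differed between retina and whole embryo, by the test of the difference itself in limma, for 713 genes, which the report describes. In 14 genes named here the changes were also called in opposite directions (log2 changes, n = 3 arrays per group). Lower in mutant retina and higher in mutant embryo were clusterin clu, with a difference of -1.62; the complement factor I gene cfi, at -0.56 in retina and 0.93 in embryo (difference -1.49); the stathmin stmn4, at -0.86 and 0.55 (-1.4); the membrane skeleton gene epb41l3b, at -0.94 and 0.41 (-1.35); and the POU factor pou3f3b, at -0.83 and 0.51 (-1.34). The receptor phosphatase ptprna had -0.29 in retina and 1.0 in embryo (-1.29). sox11a had a difference of -1.2, and the sialomucin podxl, at -0.45 in retina and 0.37 in embryo, one of -0.83.

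Higher in mutant retina and lower in mutant embryo were the GATA factor gata3, at 0.44 in retina and -0.59 in embryo (difference 1.03), and lemd1, at 0.68 and -0.44 (1.12). So were nr4a1, with a difference of 1.16, and the forkhead gene foxb1a, at 0.78 and -0.43 (1.2). The others were the steroid hydroxylase cyp17a1, at 0.79 and -0.54 (1.34), and the sugar transporter gene slc2a11b, at 0.58 and -0.84 (1.42). A second cyp17a1 probe set, under 5.11 in each group, had 0.042 in retina and -0.051 in embryo. Its difference of 0.093 was not called.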

How the results depend on the processing

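Calls moved more than directions did. The difference was called for 1184 probe sets, 431 above and 753 below 0. At an adjusted p under 0.001, the threshold of the series design, there were 318 (71 and 247), and with a 2-fold minimum 475 (111 and 364). For genes, 713 (289 and 424), these were 200 (51 and 149) and 274 (69 and 205). In the order retina lower, retina higher, embryo lower, embryo higher, same direction unequal, opposite and neither, the classes held 123, 20, 26, 10, 15, 2 and 4 genes at 0.001, and 131, 21, 37, 20 and 52 in the first 5 and 0 in the last with the 2-fold minimum. At 0.001, 680 genes were called in retina and 131 in embryo. Shared genes, called in the same direction in both with no call in the difference, numbered 32. Tested with 1 probe set per gene, 719 genes were called (287 and 432).

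With the replicate number as a block, 2314 probe sets (1003 and 1311) and 1407 genes (658 and 749) were called, and in the same order the classes held 427, 353, 160, 124, 251, 62 and 30. The block called 2938 genes in retina, 1546 in embryo and 629 in both with no call in the difference; of 201 named genes it made 14 calls more and ended none.

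On linear signal, 653 probe sets lay above 0, 283 genes were higher in retina alone, 96 higher in embryo alone, 42 unequal, 3 opposite and 101 shared. The difference of smarca4a reversed there, to -774 signal units (adjusted p = 0.00703); of the 713 genes, 704 kept their sign and 539 were called with it. The cause was not tested for these alternatives. Median subtraction changed no named call, and quantile normalization again, trended robust moderation, array weights and the fit of 18 arrays ended 3, 3, 1 and 11.

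Leaving out 1 array gave 934 to 1071 probe sets (308 to 372 above, 620 to 716 below 0) and 555 to 652 genes (202 to 256, 353 to 402). The classes, in the order above, ran from 233 to 289, 96 to 142, 66 to 84, 42 to 62, 57 to 88, 9 to 17 and 10 to 20. Shared genes, with no call in the difference, numbered 156 to 235. Retina was called in 1449 to 1824 genes and embryo in 462 to 708. Counts moved by over 1.5 times for genes higher in retina without wild type retina replicate 1 (96), for genes with neither tissue called without wild type embryo replicate 1 (20), and for shared genes (156) and embryo calls (462) without mutant embryo replicate 3. The unequal genes were 68, 59 and 68 without wild type embryo replicates 1, 2 and 3, and 57 without mutant embryo replicate 3.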

Other observations

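A few genes outside the neuronal and matrix groups showed the same separation. Purine synthesis gene paics, which pigment cells use for guanine crystals, had overlapping retinal groups, with means of 9.42 in mutants and 9.79 in wild type. In embryo it had 13.15, 13.04 and 13.21 in mutants and 12.11, 12.06 and 12.42 in wild type, and the difference was -1.31 ± 0.20 (limma, adjusted p = 0.00095). The homeobox gene gbx2 had 7.89, 8.08 and 8.08 in mutant retina against 9.68, 9.79 and 9.92 in wild type retina, and 7.29, 7.57 and 7.49 in mutant embryo against 8.08, 8.32 and 8.18 in wild type embryo, so it was lower without overlap in both and by more in retina. The epidermal annexin anxa1c was higher in mutant embryo by 1.31, where anxa1b was lower.

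Several large changes were shared. The DNA repair scaffold gene xrcc1 had 8.02, 7.89 and 8.08 in mutant retina against 6.05, 6.02 and 6.13 in wild type retina, and 6.53, 6.6 and 6.98 in mutant embryo against 5.46, 4.8 and 4.78 in wild type embryo. The proneural gene ascl1a was higher by 1.65 in retina and 1.29 in embryo, and the long-chain fatty acid elongase elovl4b changed by -1.87 and -1.31. None of these 3 was called in the difference (adjusted p = 0.741 for xrcc1, 0.473 for ascl1a and 0.0735 for elovl4b).

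The remaining lists are given with their calls in the difference, against 3.29% of all genes above 0 and 4.82% below. For epidermis and keratin 5 of 67 genes were above 0 and 3 below, for liver, yolk, gut and plasma 6 of 86 and 4, for iridophore, xanthophore and neural crest 2 of 28 and 4, for Hox and hindbrain or spinal cord genes 4 of 73 and 2, for immediate early and stress genes 8 of 74 and 6, for lens 2 of 14 and 0, and for melanin and RPE 1 of 22 and 1.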
